A study of Homo sapiens with 12 samples.

Results

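The genes described here belong to the set raised when unfolded proteins accumulate in the endoplasmic reticulum (ER). Most encode proteins that help new proteins fold there, while HERPUD1 serves ER degradation, and all are called chaperones below for short. They are 10 genes chosen by name, HSPA5, HSP90B1, DNAJB9, DNAJC3, DNAJB11, SDF2L1, HERPUD1, PDIA4, CALR and HYOU1, among 55765 gene names in the RNA-seq count table. All 10 were found in the table and passed the filter on low counts, which left 18843 tested genes. The libraries came from HEK293T, a cell line from human embryonic kidney with the large T antigen of a virus. One group received siRNA against ERI2, a member of a small family of exonucleases, and the other a control siRNA, with 3 RNA-seq libraries each. Both groups were transfected with 50 nM siRNA, transfected again 48 hours later and harvested 72 hours after that, so the controls share the transfection. There was no other ERI2 siRNA group and no rescue, so loss of ERI2 and off-target action of this siRNA cannot be told apart. The growth protocol names HEK293 while the sample label names HEK293T, and no label states that the replicates came from separate cultures, so p-values reflect only library-to-library spread, possibly technical.

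As background, secreted and membrane proteins enter the ER unfolded, and Hsp70 and Hsp90 type chaperones, lectins and disulfide isomerases help them fold. When unfolded protein builds up, the membrane sensors IRE1, PERK and ATF6 release the chaperone BiP and start the unfolded protein response, in which ATF6 and XBP1 raise transcription of chaperone genes. Many of those genes carry an ER stress element (ERSE) before their start, where the factor NF-Y binds the CCAAT part and ATF6 or XBP1 the CCACG part.

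The elements are shown because several of these genes share them in sequence. Genes of this response are known for such elements, so finding them here is a description and no test. The windows searched ran from 250 bases before to 50 bases after the annotated start, from RefSeq on GRCh38.p14, while the count table used hg19. All 10 genes had a window, and PDIA4 had more than 1. An exact ERSE, read as CCAAT, 9 free bases and CCACG on either strand, stood in 27 of 35116 windows (0.0769%), and the shorter ERSE-II, read as ATTGG, 1 free base and CCACG on either strand, in 19 (0.0541%). HSPA5, HSP90B1 and CALR held an ERSE, and HYOU1, HERPUD1 and SDF2L1 an ERSE-II. Each match is printed below 5′ to 3′ on the gene's own strand with 10 flanking bases, and the capitals mark the letters of the element that are fixed, with the free base of ERSE-II also in capitals.
HSPA5 ERSE, same strand: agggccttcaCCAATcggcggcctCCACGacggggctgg
HSP90B1 ERSE, same strand: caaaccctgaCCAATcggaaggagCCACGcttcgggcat
HSP90B1 ERSE, opposite strand: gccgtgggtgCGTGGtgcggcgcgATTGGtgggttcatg
CALR ERSE, opposite strand: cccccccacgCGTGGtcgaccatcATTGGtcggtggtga
HYOU1 ERSE-II, opposite strand, far: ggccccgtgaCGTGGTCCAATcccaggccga
HYOU1 ERSE-II, opposite strand, near: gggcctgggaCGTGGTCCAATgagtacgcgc
HERPUD1 ERSE-II, same strand: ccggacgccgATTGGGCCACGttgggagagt
SDF2L1 ERSE-II, opposite strand: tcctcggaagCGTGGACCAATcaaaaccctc

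The ERSE of HSPA5 lay from 66 to 48 bases before the start, those of HSP90B1 from 194 to 176 and from 89 to 71, and that of CALR from 225 to 207. In HYOU1 the ERSE-II matches lay from 185 to 175 and from 79 to 69 bases before the start, in SDF2L1 from 188 to 178 and in HERPUD1 from 117 to 107. TGACGTGG, a sequence bound by ATF6 and XBP1 and searched on either strand, stood in 0.729% of windows and among the 10 genes only in that of HYOU1, where it overlaps the far ERSE-II. For DNAJB9, DNAJC3, DNAJB11 and PDIA4 these exact letters were not in the window. A match of letters is a description and no measurement of binding in these cells.

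The 250 bases before the starts of HSPA5 and CALR are shown whole, HSPA5 as the gene of the central chaperone and CALR as the ERSE gene that came closest to passing the test described further on. Capitals mark the CCAAT and CCACG parts or their complements.
HSPA5, chr9:125241344-125241593, minus strand, GRCh38.p14: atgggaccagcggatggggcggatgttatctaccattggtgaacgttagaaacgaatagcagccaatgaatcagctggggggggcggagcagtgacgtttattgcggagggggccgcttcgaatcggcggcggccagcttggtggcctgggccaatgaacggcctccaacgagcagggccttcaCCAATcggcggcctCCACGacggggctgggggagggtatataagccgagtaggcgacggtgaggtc
CALR, chr19:12938359-12938608, plus strand, GRCh38.p14: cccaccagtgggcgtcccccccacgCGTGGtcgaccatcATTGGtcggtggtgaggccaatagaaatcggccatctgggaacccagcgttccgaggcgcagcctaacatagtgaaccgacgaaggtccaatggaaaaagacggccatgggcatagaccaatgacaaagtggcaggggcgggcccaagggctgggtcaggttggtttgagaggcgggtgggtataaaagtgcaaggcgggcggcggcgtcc

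**Figure D1:**
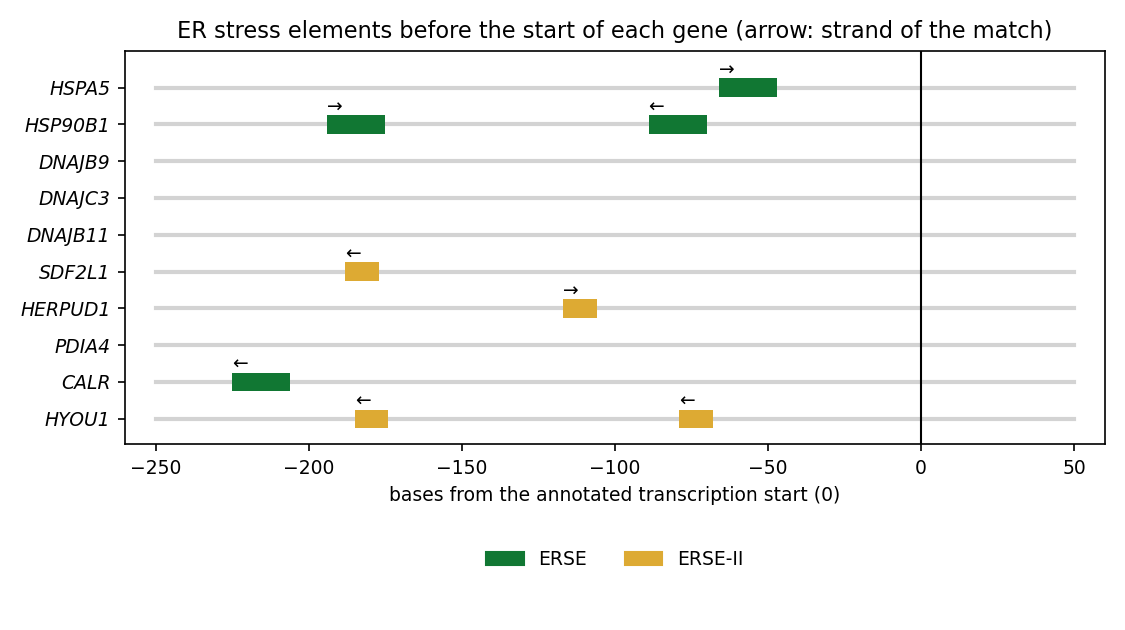
Positions of exact ERSE (green) and ERSE-II (yellow) matches in the window of each chaperone gene, in bases from the annotated start at 0; arrows give the strand of the match relative to the gene. Of the 10 genes, 6 hold a match, and HSP90B1 and HYOU1 hold 2 each.

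Libraries held from 29143596 to 38306631 counts, from 99.89% to 99.93% of them in tested genes. ERI2 mRNA was lower in every knockdown library, at 61.5% of the control level (log2 fold change -0.70, SE 0.0762; adjusted p = 0.000683 by the quasi-likelihood test of edgeR, Benjamini-Hochberg over all tested genes). Libraries of one group also differed from each other: over genes with a mean of at least 10 CPM (counts per 1e+06 counts, on TMM-scaled library sizes), ERI2 siRNA replicate 1 lay 0.183 and 0.205 log2 units (root mean square) from the other ERI2 siRNA libraries, which lay 0.118 apart, and control replicate 1 lay 0.189 and 0.210 from the other controls, which lay 0.159 apart. Values for replicates 2 and 3 alone are therefore given below for some counts and some of the genes named, not for all. That fit called 28% of all tested genes (13.9% higher and 14.1% lower). As a check of the cell line, all 9 fixed neuronal and embryonic kidney genes known from HEK293 lines were detected, led by IGF2BP1 (313 CPM) and LIN28B (115 CPM), with PAX2 (0.901 CPM) and LHX1 (1.54 CPM) low. Of the HEK293 genes 2 of 9 were lower after ERI2 siRNA, where 4.25% of all tested genes were. Their summed level was 547 to 607 CPM in controls and 514 to 567 CPM after ERI2 siRNA. With replicates 2 and 3 alone 5 of the 9 were lower and 1 higher, where 14.1% and 13.9% of all tested genes were. Of the 7 fibroblast markers COL1A2 and THY1 were at 0 in all 6 libraries and 3 were tested, with a sum of 12.9 to 16.2 CPM against 11.8 to 15.9 CPM. Among those 3, COL3A1, a fibrillar collagen, was lower after ERI2 siRNA (-1.05 on the log2 scale; 5.92 ± 0.547 to 2.85 ± 0.935 CPM, SD, n = 3; edgeR's test, adjusted p = 0.00990). Of the 6 blood cell markers HBB and CD3E were at 0, and the 2 tested, LCP1 (134 reads over all libraries) and CD14 (74 reads), summed to at most 1.57 CPM in any library. Of the 5 keratinocyte markers KRT5 and KRT6A were at 0 and SFN was tested (79 reads), and of the 6 secretory cell markers IGJ, PRSS1, CPA1 and INS were at 0 and MZB1 was tested (55 reads), each at most 0.594 CPM. No blood, keratinocyte or secretory marker passed the test. Their part in the results was not tested.

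None of the 10 chaperone mRNAs passed the test between ERI2 siRNA and control siRNA, where 8.54% of all tested genes did (809 higher, 4.29%, and 800 lower, 4.25%). CALR, the ER lectin calreticulin, came closest at 85.5% of its control level, followed by PDIA4, a disulfide isomerase, at 88.0%, and both were lower in every ERI2 siRNA library than in any control library. HSPA5, which encodes BiP, measured 107% of control with overlapping groups. In bulk RNA a lower level in every cell and fewer cells with the mRNA cannot be told apart. Before adjustment, 1 gene was higher (SDF2L1) and 2 were lower (CALR and PDIA4) at a p under 0.05, against 26.5% of all tested genes in either direction. By DESeq2, 1 gene passed, CALR (lower, adjusted p = 0.0245, where 12.4% of genes with an adjusted p were called), and by limma-voom none (8.17% of all tested genes called). Groups did not overlap for 4 of the 10 genes, 2 higher and 2 lower, where 29.7% of all tested genes did not overlap, so this share is near the background. Of the 10 log2 fold changes, 6 were positive and 4 negative, with a median of 0.07 against 0.003 over all tested genes and -0.03 over the 10315 tested genes with a mean of at least 10 CPM.

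The intervals bound how large a change these libraries allow. For 9 of the 10 genes the 95% interval of the fold change lay within 1.5-fold in either direction, and SDF2L1 was the exception, with an upper bound of 0.65 log2 units against 0.58 for 1.5-fold. The lowest bound of any member was -0.41, for CALR, and the highest of the other 9 was 0.33, for HERPUD1. The median absolute log2 fold change was 0.12 over the 10 genes, against 0.12 over genes with a mean of at least 10 CPM. Summed, the 10 genes took from 0.272% to 0.293% of all counts in each library, 2872 ± 52.5 CPM in controls and 2821 ± 115 CPM after ERI2 siRNA (SD, n = 3).

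**Figure D2:**
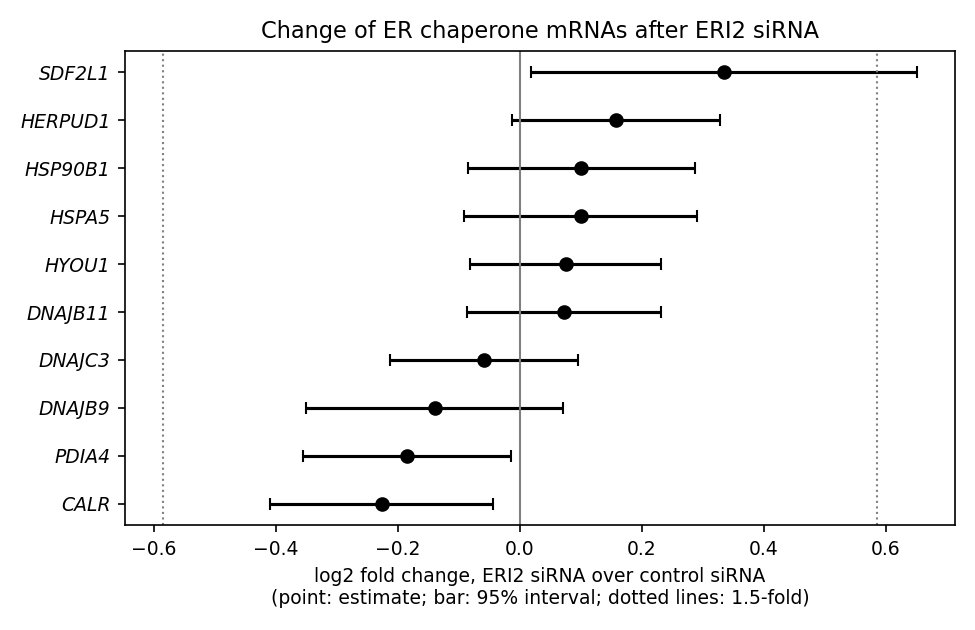
Log2 fold change of each chaperone mRNA, ERI2 siRNA over control siRNA (x axis; points are estimates, bars 95% intervals, dotted lines 1.5-fold). CALR and PDIA4 lie lowest with intervals below 0, and SDF2L1 lies highest with the widest interval, from 0.02 to 0.65.

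HSPA5 encodes BiP, the Hsp70 chaperone of the ER that binds exposed hydrophobic stretches and keeps the stress sensors inactive. Its level was 447, 464 and 465 CPM in the control libraries and 526, 436 and 513 CPM in ERI2 siRNA replicates 1, 2 and 3. The ERI2 siRNA libraries thus included both the highest and the lowest value, and their spread (SD 48.3 CPM) exceeded that of the controls (SD 10.1 CPM). The log2 fold change was 0.10 (SE 0.0890, 95% interval -0.09 to 0.29; edgeR's test, adjusted p = 0.507). The estimate was 0.04 without ERI2 siRNA replicate 1, 0.18 without ERI2 siRNA replicate 2 and 0.03 with replicates 2 and 3 alone, so its size depends on which ERI2 siRNA libraries are kept.

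HYOU1, a large Hsp70-like protein that helps BiP exchange its nucleotide, measured 307, 287 and 297 CPM in controls and 308, 322 and 308 CPM after ERI2 siRNA. Its groups did not overlap, but the lowest ERI2 siRNA value and the highest control value were nearly equal. The log2 fold change was 0.08 (SE 0.0730, 95% interval -0.08 to 0.23; edgeR's test, adjusted p = 0.547) and 0.05 without control replicate 2.

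The J-domain proteins, which stimulate the ATPase of BiP, showed no common direction. DNAJB11, which brings BiP to unfolded clients, ranged from 61.7 to 69.2 CPM in controls and from 67.4 to 73.3 CPM after ERI2 siRNA (log2 fold change 0.07). That value was 0.02 without control replicate 1, 0.03 without ERI2 siRNA replicate 1, and -0.02 with replicates 2 and 3 alone. DNAJC3, also known as an inhibitor of PERK, measured 101, 99.5 and 104 CPM against 102, 101 and 89.4 CPM (log2 fold change -0.06). ERI2 siRNA replicate 3 alone stood below all controls there, and without it the log2 fold change was -0.00051. It was -0.10 without ERI2 siRNA replicate 1 and with replicates 2 and 3 alone. DNAJB9, which represses the sensor IRE1 by bringing BiP to it, measured 16.2, 18.3 and 15.5 CPM against 15.0, 15.9 and 14.5 CPM (log2 fold change -0.14, and -0.07 without control replicate 2). The groups of all 3 overlapped, with adjusted p from 0.392 to 0.649 in edgeR's test. DNAJC3 lies beside DNAJC3-AS1, counted at 129 to 227 reads per library, and without a stated strand setting their reads cannot be told apart.

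SDF2L1, which works with DNAJB11 and BiP to keep clients from aggregating, was the least abundant in counts, with 238, 234 and 261 reads in controls and 311, 328 and 250 after ERI2 siRNA. In CPM these are 6.77, 6.32 and 9.10 against 9.85, 9.74 and 8.25. ERI2 siRNA replicates 1 and 2 lay above every control, while replicate 3 lay below control replicate 3. This is a log2 fold change of 0.34 (SE 0.148, 95% interval 0.02 to 0.65; edgeR's test, adjusted p = 0.164), the largest of the 10 and the least precise.

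HSP90B1, the Hsp90 chaperone of the ER, serves a narrower set of clients such as integrins and Toll-like receptors. Its level was 693, 712 and 727 CPM in controls and 806, 738 and 742 CPM after ERI2 siRNA. All ERI2 siRNA values lay above all controls, by a margin smaller than the spread within either group. The log2 fold change was 0.10 (SE 0.0868, 95% interval -0.08 to 0.29; edgeR's test, adjusted p = 0.490), 0.05 without ERI2 siRNA replicate 1 and 0.04 with replicates 2 and 3 alone. The processed pseudogene HSP90B2P was listed at 70 to 167 reads per library, and reads of the pair may be split between them.

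CALR encodes calreticulin, a soluble lectin that holds glycoproteins in the folding cycle and buffers ER calcium. Its level was 695, 650 and 680 CPM in control libraries 1, 2 and 3, and 609, 551 and 572 CPM in the ERI2 siRNA libraries. Every ERI2 siRNA value lay below every control. The log2 fold change was -0.23 (SE 0.0851, 95% interval -0.41 to -0.04) and did not pass edgeR's test (adjusted p = 0.109). With replicates 2 and 3 alone it was -0.25 and passed (adjusted p = 0.00732 in edgeR's test). That fit called 14.1% of all tested genes lower, and 23% of those with a mean of at least 10 CPM. Over 15 alternative settings the log2 fold change ran from -0.28 to -0.17 and the adjusted p from 0.00732 to 0.350, and 2 of the 15 passed.

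PDIA4 encodes a protein disulfide isomerase that forms and rearranges disulfide bonds and is found with BiP and HSP90B1 in chaperone complexes. Its level was 497, 468 and 512 CPM in controls and 445, 421 and 434 CPM after ERI2 siRNA, again with every ERI2 siRNA value below every control. Its log2 fold change was -0.18 (SE 0.0795, 95% interval -0.35 to -0.01; edgeR's test, adjusted p = 0.157). With replicates 2 and 3 alone it was -0.20 and passed (adjusted p = 0.0295 in edgeR's test). That fit called 23% of genes with a mean of at least 10 CPM lower. Over all 15 alternatives the adjusted p of PDIA4 ran from 0.0295 to 0.403.

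HERPUD1 encodes a membrane protein that assembles the ER degradation complex. It measured 50.1, 44.7 and 46.1 CPM in controls and 52.2, 55.8 and 49.0 CPM after ERI2 siRNA. Only control replicate 1 lay above an ERI2 siRNA value. Its log2 fold change was 0.16 (SE 0.0797, 95% interval -0.01 to 0.33; edgeR's test, adjusted p = 0.223).

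**Figure D3:**
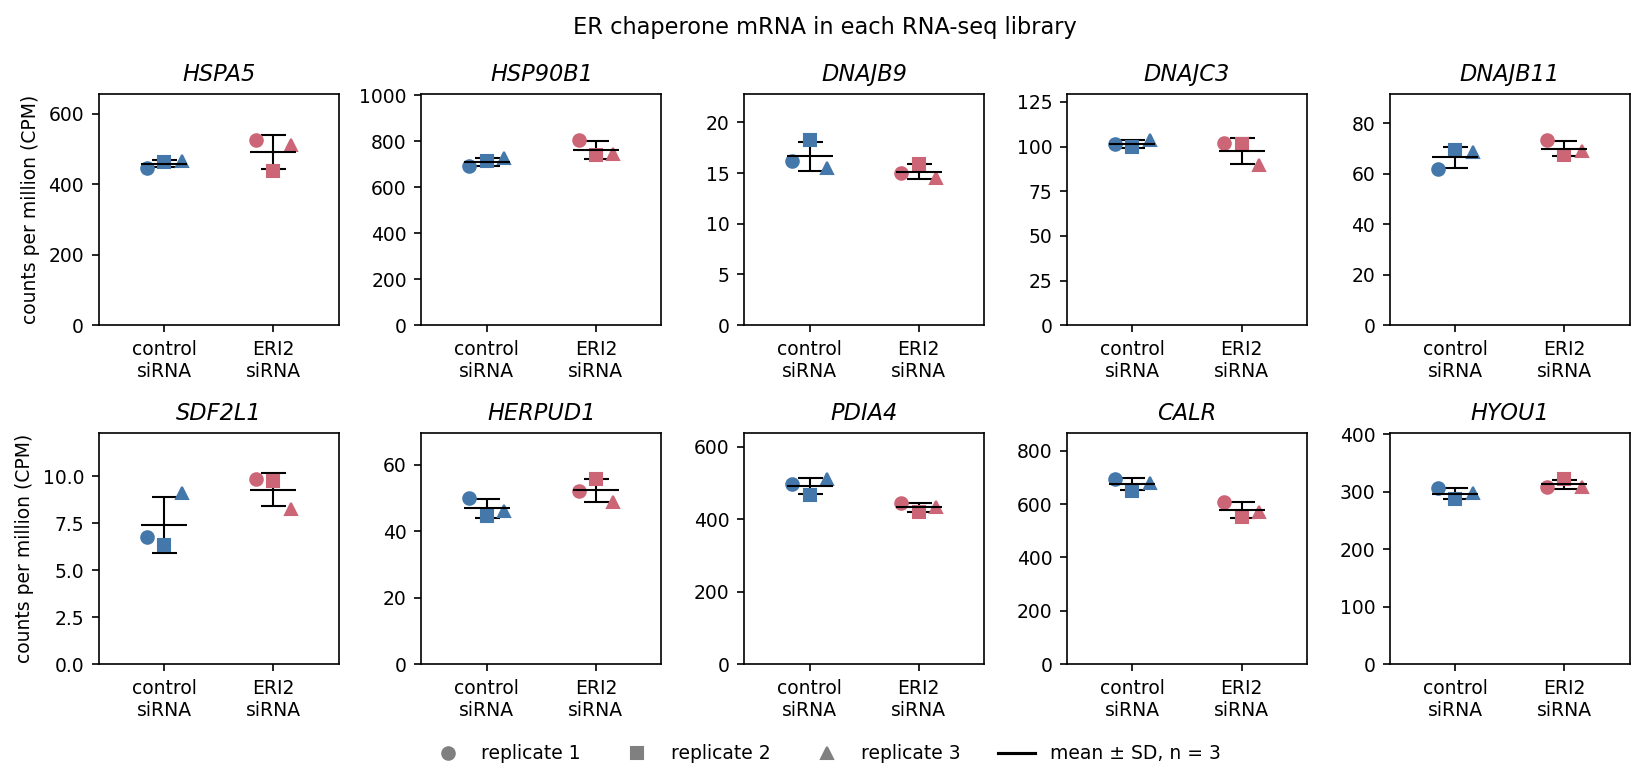
Level of each chaperone mRNA in CPM (y axis from 0) in the control (blue) and ERI2 siRNA (red) libraries; symbols mark replicates, bars the mean ± SD (n = 3). For CALR and PDIA4 all red points lie below all blue points, and for HSPA5 the red points, 436 to 526 CPM, span the blue ones.

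Ratios of counts within a library do not depend on how libraries are scaled, so CALR and PDIA4 were also set against HSPA5, a choice made after their values were seen. CALR counts were 155%, 140% and 146% of HSPA5 counts in controls and 116%, 126% and 112% after ERI2 siRNA. PDIA4 counts were 111%, 101% and 110% against 84.6%, 96.6% and 84.6%. For both genes the groups did not overlap, while for the other 7 genes they did. HSP90B1 held 155% ± 1.30 of HSPA5 counts in controls and 156% ± 12.4 after ERI2 siRNA (SD, n = 3). An exact two-sided permutation test gave p = 0.1 for CALR and for PDIA4, the smallest that 3 against 3 libraries allow (0.45 adjusted over the 9 ratios). Of all other tested genes, 24.7% had ratios to HSPA5 that did not overlap, 18.8% lower and 5.89% higher, so 2 lower of 9 is close to the background.

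**Figure D4:**
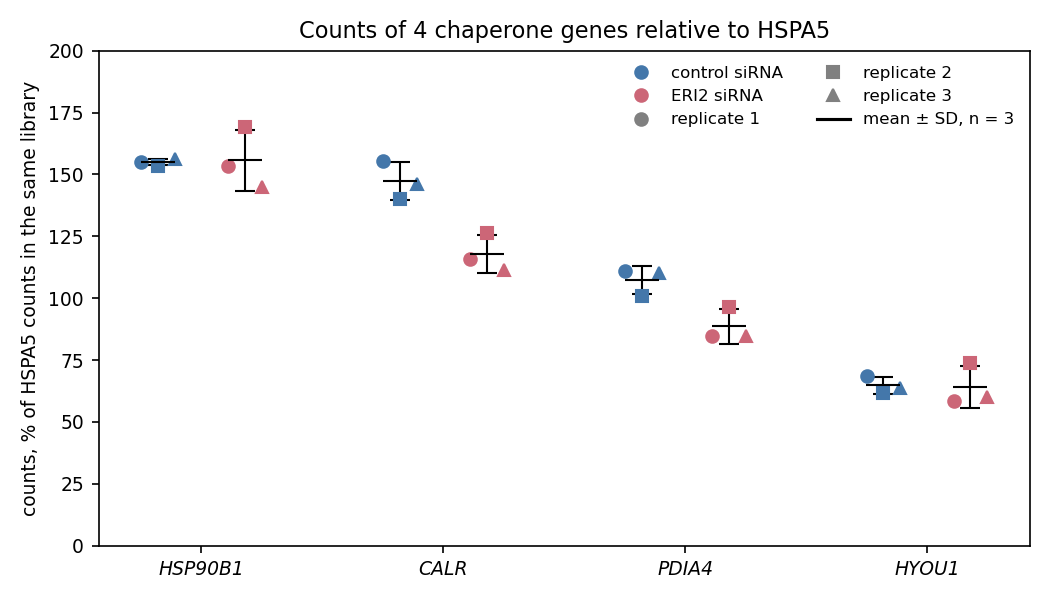
Counts of HSP90B1, CALR, PDIA4 and HYOU1 as a percentage of HSPA5 counts in the same library (y axis from 0), control in blue and ERI2 siRNA in red, with the mean ± SD (n = 3). The groups separate for CALR (147 against 118) and PDIA4 (107 against 88.6) and overlap for HSP90B1 and HYOU1.

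Genes that carry the same elements before their start were examined next. Exact ERSE or ERSE-II matches were found for 44 genes, of which 31 were tested, 6 of them the chaperones above. None of the 31 passed edgeR's test, where 8.54% of all tested genes did, with 3 higher and 3 lower at a p under 0.05 before adjustment (26.5% of all genes). By DESeq2 2 passed, CALR and PLS3 (12.4% of all), and by limma-voom 1, PLS3 (8.17%). With replicates 2 and 3 alone 1 was higher, RAD9A, and 4 lower, CALR, SERP1, PLS3 and SETD3, where 13.9% of all genes were higher and 14.1% lower. Of genes with a mean of at least 10 CPM, as most of the 31 were, that fit called 11.7% higher and 23% lower. Their median log2 fold change was 0.01. The 13 tested ERSE genes outside the 10 included the membrane lectin CANX (-0.06), the isomerase PDIA6 (-0.07), CRELD2 (0.06), FICD (-0.03), which modifies BiP, and XBP1 (-0.04). With replicates 2 and 3 alone CANX measured -0.12 and XBP1 -0.09. SERP1, a translocon-associated stress protein, measured -0.24 with an adjusted p of 0.110 in edgeR's test. PLS3, an actin-bundling protein with an ERSE-II, was the lowest of those with an ERSE-II, at -0.35 with an adjusted p of 0.0531 in edgeR's test. These genes were singled out after their values were seen.

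The sensors and factors that act on the chaperone genes changed in 2 of 19 cases, both lower, where 6.45% of genes with a mean of at least 10 CPM were lower. Under total library size neither passed, and with replicates 2 and 3 alone 4 were lower and 1 higher. Of genes with a mean of at least 10 CPM the latter fit called 23% lower and 11.7% higher, so the share that was lower is near the background. MBTPS2 (58.9 ± 0.819 to 48.9 ± 0.659 CPM; log2 fold change -0.27, adjusted p = 0.0302) and MBTPS1 (274 ± 8.76 to 230 ± 4.11 CPM; -0.25, adjusted p = 0.0413, SD, n = 3, edgeR's test) encode the Golgi proteases that cut ATF6 to release its active part, and they also cut the sterol regulators. Named for their roles rather than by the rule, ERN1, which encodes IRE1, measured -0.04 (0.11 with replicates 2 and 3 alone), EIF2AK3, which encodes PERK, -0.14 and ATF6 -0.13. XBP1 (148 ± 6.89 to 144 ± 7.49 CPM), ATF4 (518 ± 57.4 to 592 ± 58.7 CPM) and DDIT3 (10.8 ± 1.34 to 10.9 ± 0.451 CPM; SD, n = 3) did not pass, with adjusted p from 0.241 to 0.917 over these 6 in edgeR's test. Counts per gene do not show the splicing of XBP1 or the cleavage of ATF6.

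Of 18 other ER chaperones and helpers, 1 fell, HSPA13, an Hsp70 family member of microsomes (154 ± 2.87 to 131 ± 4.86 CPM; -0.24 on the log2 scale, adjusted p = 0.0420 by edgeR). Among 17 disulfide and thiol enzymes 3 fell and 1 rose, against 6.45% and 4.28% of genes with a mean of at least 10 CPM. The membrane thioredoxin proteins TMX4 (-0.43, adjusted p = 0.00726) and TMX3 (-0.30, adjusted p = 0.0230) and the oxidase ERO1L (-0.29, adjusted p = 0.0377), which recharges the isomerases, fell, while the isomerase TXNDC5 rose from 25.4 ± 0.471 to 33.8 ± 2.24 CPM (0.41, adjusted p = 0.0107; SD, n = 3, edgeR's test). PDIA3, the isomerase that partners calreticulin and named after its value was seen, measured 327 ± 8.28 against 283 ± 14.1 CPM (SD, n = 3) and did not pass (-0.21 on the log2 scale, adjusted p = 0.0962 by edgeR). It passed with replicates 2 and 3 alone (-0.26, adjusted p = 0.00646 in edgeR's test), a fit that called 23% of genes with a mean of at least 10 CPM lower.

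In the translocon and signal peptidase list 2 of 20 fell, where 6.45% of genes with a mean of at least 10 CPM did. SEC61G, a subunit of the protein channel, went from 33.0 ± 3.46 to 22.8 ± 1.71 CPM (log2 fold change -0.54, adjusted p = 0.00692), and TRAM1, which assists insertion of membrane proteins, from 142 ± 9.97 to 110 ± 13.0 CPM (-0.36, adjusted p = 0.0250; SD, n = 3, edgeR's test). No gene passed among 16 of the glycan and calnexin cycle (1 lower and 0 higher at a p under 0.05 before adjustment) or 22 of ER-associated degradation (4 lower and 1 higher), nor did any by DESeq2 or limma-voom. Of all tested genes 26.5% had a p under 0.05 before adjustment. With replicates 2 and 3 alone 1 of the 16 was lower, and of the 22 4 were lower and 3 higher. Of genes with a mean of at least 10 CPM that fit called 23% lower and 11.7% higher. The smallest p-values of these lists belonged to MLEC (-0.19) and LMAN1 (-0.12), both lectins, and to the degradation genes SEL1L (-0.21, adjusted p = 0.0689 in edgeR's test) and UBE2J2 (0.21). With replicates 2 and 3 alone MLEC (-0.23, adjusted p = 0.0128), SEL1L (-0.20, 0.0392) and UBE2J2 (0.26, 0.0327) passed edgeR's test, and LMAN1 did not (-0.15, 0.105).

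Over these 6 ER lists 8 of 112 genes fell (7.14%) and 1 rose (0.893%), with a median log2 fold change of -0.06. Of genes with a mean of at least 10 CPM, which 111 of the 112 reached, 6.45% fell and 4.28% rose, with a median of -0.03. The share that fell is thus near the background, and the share that rose is below it. Of the 112 log2 fold changes 78 were negative and 34 positive, against 5956 and 4359 of those 10315 genes. Groups did not overlap for 29 lower and 4 higher of the 112, where 20.5% and 12% of those genes did not. Under total library size 3 of the 112 were lower (TMX4, SEC61G and TRAM1) and 1 higher (TXNDC5), where the split over all genes was 976 higher to 463 lower. With replicates 2 and 3 alone 23 of the 112 were lower (20.5%) and 7 higher (6.25%), against 23% lower and 11.7% higher of genes with a mean of at least 10 CPM. TMX4 and SEC61G passed with each of the 6 libraries left out in turn. TXNDC5 did not pass without control replicate 3 (adjusted p = 0.0544) or ERI2 siRNA replicate 3 (0.0609), nor TRAM1 without control replicate 2 (0.0851) or ERI2 siRNA replicate 3 (0.119), in edgeR's test. MBTPS2, HSPA13 and TMX3 did not pass without control replicate 2 or 3 or ERI2 siRNA replicate 2 or 3, nor MBTPS1 and ERO1L without these or control replicate 1, with adjusted p from 0.0553 to 0.187 in edgeR's test.

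**Figure D5:**
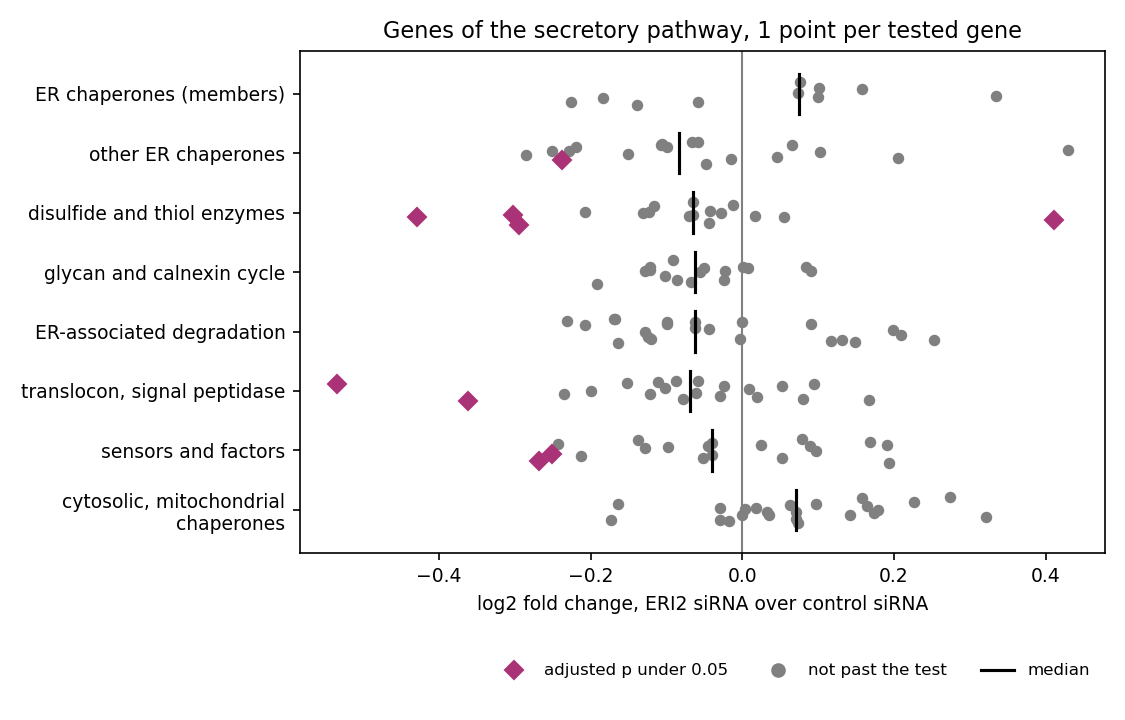
Log2 fold change (x axis) of each tested gene in the chaperone set and in 7 related lists, 1 point per gene, with purple diamonds for genes past the test and a black line at each median. The 10 chaperones hold no diamond, and the ER lists hold 8 diamonds below 0 and 1 above.

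Chaperones of the cytosol and mitochondria, some of which answer to heat shock, held no call among 23 tested. Before adjustment 3 were higher and 0 lower at a p under 0.05 (26.5% of all tested genes in either direction). By DESeq2 1 was higher, where 6.2% of genes with an adjusted p were, and by limma-voom 0, where 4.18% of all tested genes were. CHORDC1, a partner of Hsp90, measured 134 ± 14.1 against 162 ± 17.5 CPM and HSPA1B, an inducible Hsp70, 153 ± 12.0 against 179 ± 15.6 CPM (SD, n = 3), with adjusted p of 0.0794 and 0.102 in edgeR's test. Under total library size 3 of this list were higher, where 5.18% of all tested genes were. With replicates 2 and 3 alone 5 were lower and 0 higher. Of genes with a mean of at least 10 CPM that fit called 23% lower and 11.7% higher, so the share that was lower is near the background. The log2 fold change of CHORDC1 was 0.27, 0.17 without ERI2 siRNA replicate 1 and 0.16 with replicates 2 and 3 alone, and that of HSPA1B was 0.23 and 0.10 with replicates 2 and 3 alone. The median of the list, 0.07 in all libraries, was 0.36 between the libraries numbered 1, -0.18 between those numbered 2 and -0.05 between those numbered 3. HSPA1B may share reads with its near-identical copy HSPA1A. Summed over the list, the level varied more between libraries than that of the ER set. The 23 genes ran from 7751 to 9844 CPM in controls and from 8436 to 10543 CPM after ERI2 siRNA. Those of the 10 ER chaperones ran from 2819 to 2924 and from 2720 to 2946 CPM. Abundant genes weigh most in such a sum, such as HSPA8 (1988 ± 213 CPM in controls) and HSP90AA1 (1705 ± 245 CPM in controls, SD, n = 3).

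Across the 6 libraries HSPA5 was lowest in ERI2 siRNA replicate 2 and highest in ERI2 siRNA replicates 1 and 3. By root mean square difference of centred log2 CPM, the genes nearest to this pattern among 10306 others with a mean of at least 10 CPM were RBBP6 (0.0305), HAUS8 (0.0340), MRPL52 (0.0345), SMYD5 (0.0355) and ANAPC11 (0.0370). Within the set, HSP90B1 (0.0661) ranked 160 and DNAJB11 (0.0699) ranked 208 of 10314. CALR (0.175) ranked 6862 and DNAJB9 (0.181) 7182. SDF2L1 (0.238) lay farthest of the set, with a mean below 10 CPM and so outside the ranked genes. The 10 genes thus did not share 1 pattern over these libraries. The measure is a description over 6 libraries.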

How the data were processed

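The authors deposited 1 table of raw read counts per gene name, per the values whole numbers with a different total in each library. TopHat2 2.0.10, HTSeq 0.6.1p1, CASAVA 1.8.2 and the build hg19 are named, without their roles, per the submitters' processing notes. No strand setting or annotation release is given in the sources used here, so a gene and an antisense neighbour may share counts. The miRNA table was not used here. Every column matched 1 sample by name. After filterByExpr and TMM scaling, the robust quasi-likelihood test of edgeR 4.0.16 (R 4.3.3) was run over all 18843 tested genes, at a Benjamini-Hochberg adjusted p under 0.05. Intervals are 95%, and log2 CPM used a prior count of 2. Alternatives were DESeq2 1.42.0, limma-voom (limma 3.58.1), other scalings and filters, a replicate block, leaving out each library, and replicates 2 and 3 alone. No transcript lengths were used, so levels are not compared between genes. The chaperones, the gene lists and the alternatives were chosen with earlier results of these data known. Genes named from a list are those past the test, at most 4 by smallest p, or the 2 with the smallest p where none passed; others are said to be chosen after their values were seen or for their role. In simulated data for this comparison, the test recovered 75% of 200 genes changed 1.5-fold (9 false calls, 18562 genes) and 91% of 200 changed 2-fold (14 false calls, 18553 genes). The changed genes were drawn from those with a mean above 1 CPM. Counts were drawn independently for each gene and library, so a shift shared by many genes of 1 library was not simulated.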

Additional observations from a re-analysis of the deposited data

How the results depend on the processing

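No chaperone gene was called higher under any of the 15 alternatives, and the number called lower stayed at 0 except for 1 by DESeq2 (CALR) and 2 with replicates 2 and 3 alone (CALR and PDIA4). DESeq2 called 6.17% of genes with an adjusted p lower. The fit of replicates 2 and 3 alone called 23% of genes with a mean of at least 10 CPM lower. The median log2 fold change of the 10 genes was 0.07, 0.13 under total library size and 0.0039 with replicates 2 and 3 alone, and it ran from 0.032 (without ERI2 siRNA replicate 1) to 0.075 when 1 library was left out. Of the 10 genes, 9 kept their sign under all 15 alternatives, and DNAJB11 turned to -0.02 with replicates 2 and 3 alone. Deviations of same-numbered libraries from their group means had correlations of -0.30, -0.08 and -0.10 over genes. Those of differently numbered libraries ran from -0.18 to 0.26. With 3 libraries per group, each centred on its own group, such values cannot decide whether the numbers mark pairs. With the replicate number as a block the median was 0.07, 0 chaperone genes were called, and calls over all genes went from 1609 to 203. Of the 9 called ER list genes only SEC61G then passed edgeR's test (adjusted p = 0.0430). The other 8 had adjusted p from 0.0529 (TMX4) to 0.183 (MBTPS1) in edgeR's test. With scaling by total counts, where the median over all tested genes was 0.06 in place of 0.003, the log2 fold change was 0.16 for HSPA5 and HSP90B1, 0.13 for HYOU1 and DNAJB11, -0.08 for DNAJB9 and -0.0016 for DNAJC3. SDF2L1 had the fewest reads (234 to 328 per library), the widest interval and a coefficient of variation of 20.1% among its controls.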
